A study of Mus musculus with 2 samples.

Results

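Early S cells were the AE9a leukemia cells whose transcripts of genes used at the start of DNA replication outweighed those of the later cell cycle. They were chosen from the measured transcripts. Each barcode was kept if it held at least 500 genes and between 2 and 10% mitochondrial unique molecular identifiers (UMIs). Each kept cell then received 3 scores, each the log of summed UMIs per 10000, expressed in standard deviations over all kept cells. The E score summed Ung, Dtl, Mcm4, Mcm6, Cdc6, Cdt1 and Hells. The H score summed the histone genes Hist1h1b, Hist1h1a, Hist1h2ap and Hist1h2ae with Rrm2 and Fbxo5. The M score summed Cenpf, Aspm, Prc1, Ube2c, Plk1, Hmmr, Cdc20 and Ccnb1. A cell was an early S cell when its E score was the highest of the 3 and at least 0. This held for 4508 of 13918 kept cells, out of 15114 deposited, and the other kept cells fell into late S histone-high cells (3024), G2 and mitotic cells (3463) and cells below 0 on all 3 scores (2923). Because the scores chose the cells, differences between early S cells and the other classes are given as descriptions, with no test.

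The samples were 2 single-cell RNA-seq libraries of GFP+ Lin- c-Kit+ splenocytes, each sorted and pooled from 3 recipient mice. Fetal liver cells of Usp18+/f UBCER-Cre mice had been given the AML1-ETO9a (AE9a) fusion with GFP by retrovirus, and the resulting leukemia was passed on to sublethally irradiated recipients, which the study describes as 8 to 12 weeks old and of both sexes. Once sick, the recipients received 2 injections of oil (Usp18+/f) or tamoxifen (Usp18+/Δ, heterozygous depletion), and cells were taken 3 days after the first one. Cells of both groups carried 1 floxed Usp18 allele and the tamoxifen-dependent Cre, which is expressed in most cell types. No group received tamoxifen without the floxed allele, so the drug and the deletion cannot be told apart. With 1 library a group there was no replicate, no test of a difference between conditions and no p-value: the 95% intervals below cover counting error only, and each comparison is between these libraries. UMIs were summed over the cells of a class in a library and given as counts per 1000000 UMIs (CPM). Where values are paired, the Usp18+/f library stands first and the library labelled Usp18+/Δ second.

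Before S phase, the origin recognition complex, Cdc6 and Cdt1 load the Mcm helicase onto replication origins, a step called licensing. Cyclin E and the E2F transcription factors start S phase, and E2F proteins drive many of the genes that replication needs. Once forks form, the ubiquitin ligase that carries the Dtl protein destroys Cdt1, which keeps an origin from being used again, and geminin (Gmnn) also holds Cdt1 back. Ung removes uracil from new DNA, and Hells is a chromatin remodeler. Replication-dependent histone transcripts and mitotic genes reach their highest levels later in the cycle, and uncontrolled cycling is a hallmark of leukemia.

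The promoters of the E score genes are shown because these genes define the cells and E2F motifs are what such genes are known to share. RefSeq promoters of the GRCm38.p6 build run from 250 bases before the start site to 50 after it, and 6 of the 7 genes had one. Mcm4 and Ccne2 are named only. Capitals mark 8-base E2F words, which were TTTCCCGC, TTTCGCGC, TTTGCCGC and TTTGGCGC, searched on both strands. The regions were Dtl at chr1:191575495-191575794 on the minus strand, Mcm6 at chr1:128359656-128359955 on the minus strand, Cdc6 at chr11:98907901-98908200, Hells at chr19:38930740-38931039 and Ung at chr5:114130185-114130484, the last 3 on the plus strand.
Dtl: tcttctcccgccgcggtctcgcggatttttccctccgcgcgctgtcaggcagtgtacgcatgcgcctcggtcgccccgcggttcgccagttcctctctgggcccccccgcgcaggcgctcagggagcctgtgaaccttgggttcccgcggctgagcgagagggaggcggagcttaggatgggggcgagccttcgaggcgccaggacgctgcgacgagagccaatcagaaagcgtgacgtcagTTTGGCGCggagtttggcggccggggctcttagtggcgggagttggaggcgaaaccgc
Mcm6: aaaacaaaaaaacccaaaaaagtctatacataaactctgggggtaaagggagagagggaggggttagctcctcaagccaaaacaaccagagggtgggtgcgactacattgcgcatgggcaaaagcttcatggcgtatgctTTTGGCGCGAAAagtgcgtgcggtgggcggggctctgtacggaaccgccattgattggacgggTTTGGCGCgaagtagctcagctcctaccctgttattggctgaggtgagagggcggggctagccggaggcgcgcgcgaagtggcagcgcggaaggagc
Cdc6: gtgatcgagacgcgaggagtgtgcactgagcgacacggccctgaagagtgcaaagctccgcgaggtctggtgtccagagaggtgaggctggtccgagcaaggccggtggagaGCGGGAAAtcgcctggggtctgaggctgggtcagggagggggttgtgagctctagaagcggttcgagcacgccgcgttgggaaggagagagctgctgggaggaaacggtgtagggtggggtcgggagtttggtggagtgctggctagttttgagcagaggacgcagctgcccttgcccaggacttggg
Hells: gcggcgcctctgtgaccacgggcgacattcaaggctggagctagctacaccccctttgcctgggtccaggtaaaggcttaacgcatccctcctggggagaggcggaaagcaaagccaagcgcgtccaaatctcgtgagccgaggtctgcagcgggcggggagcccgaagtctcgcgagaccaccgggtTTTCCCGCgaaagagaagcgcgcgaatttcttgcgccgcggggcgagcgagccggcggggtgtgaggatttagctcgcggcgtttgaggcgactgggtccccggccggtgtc
Ung: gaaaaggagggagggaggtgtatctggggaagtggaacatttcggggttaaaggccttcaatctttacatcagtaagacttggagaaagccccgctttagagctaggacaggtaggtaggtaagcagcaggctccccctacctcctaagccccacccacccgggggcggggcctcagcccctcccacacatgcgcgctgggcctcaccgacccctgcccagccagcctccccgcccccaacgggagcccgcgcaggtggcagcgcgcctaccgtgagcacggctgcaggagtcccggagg
These words stood 8 bases before the start site in Dtl, 138 before it in Cdc6 and 62 before it in Hells. Mcm6 held 3 of them, 110, 106 and 47 bases before its start, the first pair overlapping. Cdt1 (chr8:122567765-122568064, plus strand) held TTTGGCGC 32 bases after its start, and the Ung window held none of these words. Thus 5 of 6 E score promoters held an E2F word, against 744 of all 32851 promoters in the table (2.26%). Outside the score, the Ccne1 promoter held none, while 7 of 14 promoters of G1/S cyclin and E2F genes held one. None of the 8 M score promoters held one, whereas 7 of these 8 held the word TTTGAA, the cell cycle homology region of late cell cycle genes, present in 17.9% of all promoters and in 0 of the 6 E score promoters. CCAAT was found in 8 of 8 M score promoters, in 2 of 6 E score promoters and in 37.4% of all promoters. Of the licensing genes outside the score, 6 of 11 promoters held an E2F word, as did 5 of 17 for the fork, 2 of 8 for origin firing, 1 of 11 for replication-coupled chromatin and 0 of 11 for deoxynucleotide synthesis. A match is a description of letters in a window, not a binding site, and the lack of one says nothing about the factor.

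The targeted gene went against its label. Usp18, which encodes the ISG15 protease that also restrains the type I interferon receptor, had 114 UMIs in the early S cells of the Usp18+/f library and 435 in those of the library labelled Usp18+/Δ. These are levels of 6.0 CPM (4.95 to 7.20) and 23.0 CPM (20.9 to 25.3), a log2 ratio of 1.94 (1.64 to 2.25). It was also higher in late S cells (2.45), G2 and mitotic cells (1.80) and cells below 0 on all 3 scores (2.18). Usp18 is itself interferon-induced, and 3' counts do not separate a floxed from a recombined allele, so this count does not check the deletion.

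Depth was similar in the early S cells of both libraries. They held 19014797 and 18898882 UMIs, with a median of 8264 and 7946 UMIs, 2825 and 2776 genes and 6.53 and 6.58% mitochondrial UMIs a cell. Over a whole class, 3 UMIs correspond to 0.158 and 0.159 CPM. The study aimed at 8000 cells a group, the deposited tables held 7281 and 7833 barcodes, and 6573 and 7345 passed the filter. The libraries shared 15 barcodes. Doublets were kept.

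Early S cells carried the marker of their sort and genes of immature myeloid, mast and erythroid cells. Kit, the stem cell factor receptor, stood at 87.1 and 89.7 CPM, Runx1 at 578 and 513 CPM and Gata2 at 205 and 166 CPM. Ptprc (CD45), a general leukocyte gene, had only 3 and 6 UMIs, and Mpo, a myeloid granule gene, had none. Transcripts of mast cells (Ms4a2, 470 and 464 CPM) and red cells (Klf1, 149 and 128 CPM) were present. Of the 8 T and NK cell genes 6 were at 0, among them Cd3d, Cd3e, Cd4 and Cd8a, and the list summed to 6.63 and 14.1 CPM, nearly all of it Nkg7. Of the 6 B cell genes 4 were at 0, Pax5 included, with sums of 0.210 and 0.212 CPM. Of the 7 neutrophil genes 3 were at 0, Ly6g included, with sums of 0.158 and 0.582 CPM. The 7 macrophage genes summed to 1.21 and 7.41 CPM, that is 23 UMIs in 7 cells and 140 UMIs in 66 cells. All 7 were found in the library labelled Usp18+/Δ, and Adgre1 was at 0 in the other.

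The 7 E score genes measured the members by construction, and the libraries gave almost the same levels. Ung, the uracil-DNA glycosylase whose promoter is shown above, was the most restricted of them: it stood at 64.5 CPM (61.0 to 68.2) and 60.6 CPM (57.1 to 64.2) in early S cells, at 17.2 and 20.9 CPM in late S cells, and at 1.94 and 1.82 CPM in G2 and mitotic cells. In cells below 0 on all 3 scores Ung stood at 2.6 and 2.55 CPM. An Ung UMI was found in 38.8 and 35.7% of early S cells but in 2.20 and 1.76% of G2 and mitotic cells, whose median depth was greater (11832 and 11158 UMIs). Thinned to 3000 UMIs a cell, those shares were 15.9 and 16.2% against 0.394 and 0.492%.

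Dtl, the substrate receptor that marks Cdt1 for destruction, stood at 192 and 190 CPM in early S cells against 71.0 and 63.6 CPM in all other kept cells. Cdt1, its substrate, stood at 174 and 175 CPM against 78.8 and 78.9 CPM. Both are score genes, so their high levels in this class were set by the rule. The Mcm helicase subunits Mcm4 (191 and 189 CPM) and Mcm6 (367 and 363 CPM) had log2 ratios over the other cells of 1.34 and 1.27, and of 1.20 and 1.19. The loading factor Cdc6 stood at 60.7 and 65.0 CPM, with log2 ratios of 1.31 and 1.44, and Hells at 101 and 103 CPM, with log2 ratios of 1.53 and 1.57. Of the 7 genes, Ung had the largest log2 ratio over other cells (3.13 and 2.78) and also over late S cells (1.91 and 1.53), where Mcm6 was among the smallest (0.45 and 0.40), with Cdc6 at 0.45 and 0.53 and Cdt1 at 0.51 and 0.44. In both libraries each of the 7 genes was highest in early S cells and next highest in late S cells.

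**Figure D1:**
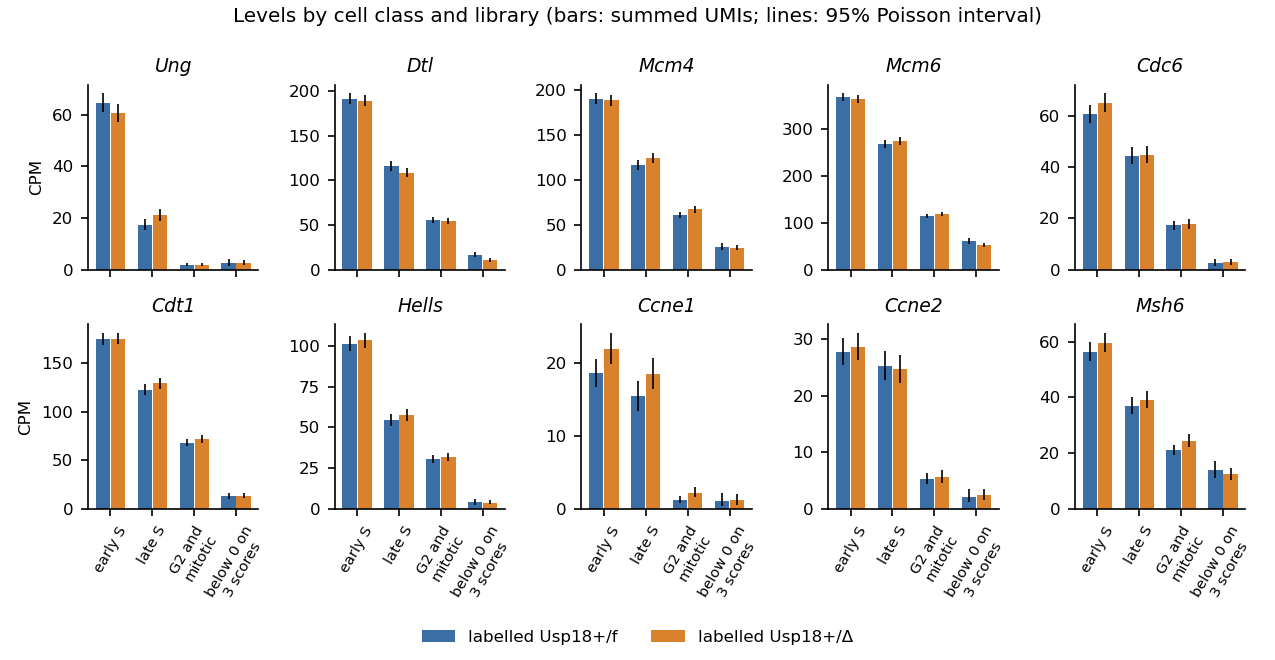
Levels of the 7 E score genes and of Ccne1, Ccne2 and Msh6, which were not in the score, in CPM (y axis) by cell class (x axis). Bars are summed UMIs of a class in the Usp18+/f library (blue) and in the library labelled Usp18+/Δ (orange), lines are 95% Poisson intervals: Ung drops from 64.5 and 60.6 CPM in early S to 17.2 and 20.9 CPM in late S, while Ccne1 stays close (18.5 and 21.9 against 15.4 and 18.4 CPM).

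Single cells carried few of these transcripts. An early S cell held a median of 9 E score UMIs and 4 of the 7 genes, and 49.7 and 48.2% of the cells held at least 5 of the 7. H score genes gave a median of 2 and 1 UMIs and M score genes a median of 1 UMI a cell. Of the 4508 cells, 2745 (60.9%) lay below 0 on both other scores, 1228 (27.2%) had an H score of at least 0, and 764 (16.9%) an M score of at least 0. Class borders cut through a continuum. Within 0.1 of the next score there were 194 early S cells, with a median of 10 E and 11 H score UMIs, and 215 cells just outside, with 10 and 14. Within 0.1 of an E score of 0 there were 133 cells inside and 120 outside, and both held a median of 3 E score UMIs. After thinning to 3000 UMIs and scoring again, 79.1% of 2198 and 78.4% of 2235 early S cells kept their class, and 9.92 and 10.2% moved to the cells below 0 on all 3 scores.

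**Figure D2:**
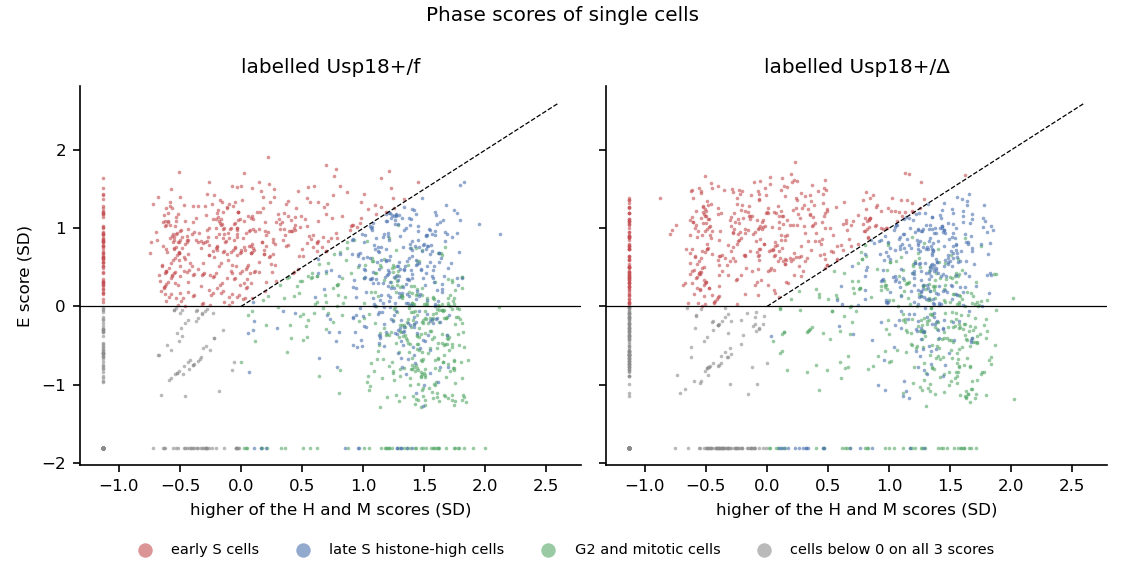
E score (y axis) against the higher of the H and M scores (x axis), both in standard deviations, for 3000 randomly drawn kept cells, by library (panels) and class (colour). Early S cells (red) lie above 0 and above the dashed diagonal, and they pass without a gap into late S cells (blue) and into cells below 0 on all 3 scores (grey).

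Outside the score, the genes with the highest ratios in early S cells included both cyclin E genes and Msh6. With score genes left out, 6130 genes had at least 20 CPM. Of these, 39 (0.636%) were at least 1.5-fold higher than in all other kept cells in both libraries and 179 (2.92%) at least 1.5-fold lower. Ccne1, cyclin E1, stood at 18.5 and 21.9 CPM against 6.15 and 7.74 CPM in the other cells, log2 ratios of 1.59 (1.36 to 1.82) and 1.5 (1.29 to 1.71). Ccne2, cyclin E2, followed with 27.7 and 28.6 CPM against 11.8 and 11.7 CPM (1.23 and 1.29). Both cyclins activate Cdk2 at the start of S phase. Msh6, a mismatch recognition protein, stood at 56.4 and 59.6 CPM against 25.6 and 26.9 CPM, log2 ratios of 1.14 and 1.15. Cdca7, the partner through which Hells is recruited to chromatin, had 1.27 and 1.11, and Rfc3, a subunit of the clamp loader, 1.08 and 1.0. The checkpoint kinase Chek1 had 0.85 and 0.81, E2f1 1.09 and 0.81, and Zmynd19 and Zfp367, also among the 10 highest, had 0.92 and 1.05, and 0.81 and 0.87. Over the alternatives tried, the ratios in the library labelled Usp18+/Δ ran from 1.39 to 2.78 for Ccne1 and from 0.95 to 1.79 for Rfc3. In the Usp18+/f library Zfp367 ran from 0.53 to 0.98.

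Replication genes did not all move with the score. Lists of replication genes outside the score were counted among 9003 genes of at least 5 CPM, of which 84 (0.933%) were at least 1.5-fold higher in early S cells than in all others in both libraries and 271 (3.01%) lower; the median log2 ratio over all 9003 was 0.0071 and 0.0061. Of 57 licensing, firing, fork and deoxynucleotide genes, 10 were higher and 1 lower, with medians of 0.16 and 0.18. Over early S cells with H and M scores below 0 only, the medians were 0.0094 and 0.049, and with cells of 2 to 5% mitochondrial UMIs the second was 0.46. Licensing led with 4 of 12 higher and medians of 0.44 and 0.45. Its highest members were Orc1 (0.95 and 1.03), the largest subunit of the origin recognition complex, and Mcm2 (0.82 and 0.78), and its lowest were Orc5 (-0.40 and -0.20) and Gmnn (-0.15 and 0.028).

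Origin firing genes, which turn a loaded helicase into a fork, split. Gins2 (0.78 and 0.70) and Wdhd1 (0.73 and 0.68) were higher, whereas Dbf4, the activator of the Cdc7 kinase, was lower at 24.3 and 30.8 CPM against 71.3 and 68.5 CPM, log2 ratios of -1.55 and -1.15. The list of 13 had medians of -0.0019 and 0.092. Among 20 fork genes only Rfc3 and Rpa2 (0.70 and 0.74), a single-strand binding protein, passed 1.5-fold, Pcna stood at 0.43 and 0.48, and Rfc5 was lowest at -0.15 and -0.14. Among 12 deoxynucleotide genes 2 were higher, among them Umps (0.63 and 0.62), a pyrimidine synthesis enzyme, while thymidine kinase Tk1 stood at -0.59 and -0.49. None of 6 genes of the ligase that carries Dtl (Cul4a, Cul4b, Ddb1, Rbx1, Dda1 and its target Kmt5a) passed 1.5-fold, with log2 ratios from -0.35 to 0.20.

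Of 18 measured G1/S genes, Ccne1, Ccne2 and E2f1 were higher and E2f8 (-0.48 and -0.43), a repressor of E2F targets, was lowest. Of 12 replication-coupled chromatin genes Cdca7, Uhrf1, Chaf1b and Slbp were higher, and Asf1b, a histone chaperone, was lower (-0.87 and -0.78). Chek1 was the 1 of 11 checkpoint genes to pass. Of 12 mismatch and base excision repair genes 2 were higher, Msh6 among them, and 1, the glycosylase Neil3, was lower (-1.82 and -1.64). Of 13 recombination and crosslink repair genes none was higher and 3 were lower, Fancd2 (-1.30 and -1.37), Pclaf (-1.17 and -0.93) and Rad51ap1 (-0.61 and -0.63), with medians of -0.53 and -0.38.

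Histone and mitotic transcripts were low, as the rule asked of the H and M genes. Of 14 measured histone genes outside the score 13 were at least 1.5-fold lower than in all other cells, Hist1h2ab the most (8.41 and 5.71 CPM against 57.5 and 41.0 CPM). The exception, Hist1h2bc, stood at 0.34 and 0.46. Reads of these near-identical genes can be split between copies, so single values are uncertain. Of 25 G2 and mitosis genes 24 were lower, and Ccnb2 stood at -0.41 and -0.11. The 10 lowest genes outside the score were spindle and late cycle genes. Nusap1, a microtubule bundling protein, stood at 9.05 and 9.26 CPM against 153 and 131 CPM, log2 ratios of -4.08 and -3.82, and Prr11 at -3.96 and -4.25. Aurora kinase A (Aurka, -3.79 and -3.26), the motors Kif11 (-3.29 and -3.14) and Kif14 (-3.54 and -2.99), Depdc1a (-3.63 and -2.95), Pimreg (-3.32 and -2.83), Kpna2 (-3.03 and -2.92), Iqgap3 (-3.01 and -2.81) and topoisomerase Top2a (-2.81 and -2.80) followed.

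Against late S cells alone the picture changed for replication genes. Medians of the 57 replication genes were -0.23 and -0.26 over late S cells, 0.30 and 0.24 over G2 and mitotic cells, and 1.84 and 1.96 over cells below 0 on all 3 scores. Ccne1 differed from late S by only 0.27 (0.025 to 0.51) and 0.25 (0.031 to 0.47), and E2f1 by 0.15 and -0.19. Msh6 (0.61 and 0.61) and Cdca7 (0.91 and 0.65) were still higher. Brca1 (-1.10 and -0.83), Tk1 (-1.44 and -1.35), Tyms (-1.0 and -0.91) and Cdc45 (-1.04 and -1.08) were lower than in late S, and recombination genes had medians of -1.10 and -0.93. The 10 largest differences from late S were all lower values. Mxd3, a Max-binding transcriptional repressor, led with 1.53 and 1.11 CPM against 21.5 and 20.4 CPM (-3.82 and -4.20). The others were Nusap1, Hist1h2ab (-3.38 and -3.52), Kif11, Top2a (-3.01 and -3.11), the kinetochore gene Spc25 (-3.01 and -2.96), Iqgap3, Aurkb (-2.94 and -3.18), Ankle1 (-3.31 and -2.90) and Aurka.

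**Figure D3:**
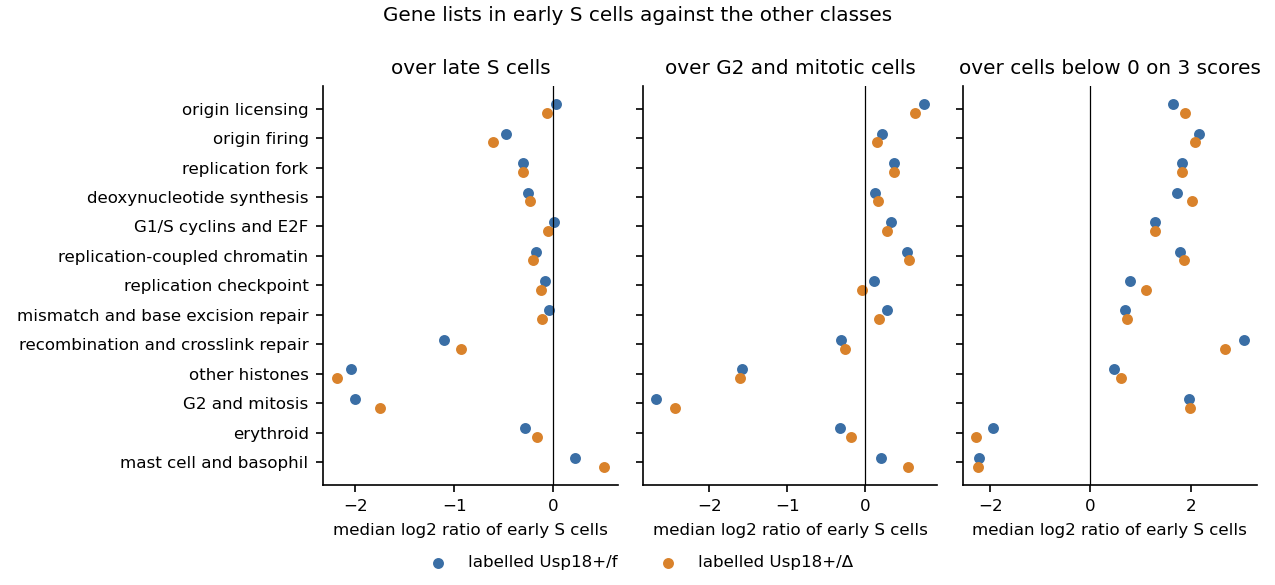
Median log2 ratio (x axis) of early S cells over late S cells, G2 and mitotic cells and cells below 0 on all 3 scores (panels) for 13 gene lists outside the scores (y axis), in the Usp18+/f library (blue) and in the library labelled Usp18+/Δ (orange). Licensing lies near 0 against late S (0.026 and -0.065) and recombination repair at -1.10 and -0.93, while all replication lists lie well above 0 against cells low on all scores.

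Differentiation genes followed the cell classes. Of 7 measured erythroid genes 5 were at least 1.5-fold lower than in all other cells, with medians of -0.77 and -0.97. They were 4 globin genes, whose copies share reads, and Alas2. Of 6 mast cell and basophil genes Mcpt1 (-0.82 and -0.70) and Mcpt2 (-0.82 and -1.24), related mast cell proteases whose reads can be split between copies, were lower. Against late S the mast list had medians of 0.22 and 0.52, against cells below 0 on all scores -2.22 and -2.24. Cpa3, the mast cell carboxypeptidase, stood at 74.0 and 111 CPM in early S cells, 51.6 and 76.1 CPM in late S and 445 and 720 CPM in cells below 0 on all scores. Of 9 cell cycle exit genes Cdkn2d (-1.52 and -1.55), a Cdk4 and Cdk6 inhibitor, and Ccng2 (-1.56 and -2.16) were lower, with medians of -0.20 and -0.42 for the list.

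Within the early S cells, levels outside the score graded along it. The 4508 cells were cut into 4 bands of E score, with 526 to 601 cells a band and library. Median depth was also higher along the bands, from 7481 and 7151 to 8914 and 8291 UMIs. Exo1, an exonuclease of mismatch and recombination repair, went from 10.0 to 49.0 CPM and from 11.3 to 55.1 CPM between the lowest and the highest band. Uhrf1, which guides Dnmt1 to new DNA, went from 48.8 to 152 CPM and from 51.8 to 145 CPM, and Clspn, the claspin mediator of Chek1, from 42.2 to 125 CPM and from 38.6 to 145 CPM. E2f1 went from 18.3 to 40.5 CPM and from 15.3 to 37.6 CPM. Ccne1 was higher up to the third band (7.81 to 22.7 CPM, 14.6 to 27.3 CPM) and was at 24.7 and 24.0 CPM in the fourth. Top2a went from 26.1 to 148 CPM and from 17.5 to 142 CPM, and the summed H score genes from 150 to 765 CPM and from 119 to 774 CPM. The summed M score genes stood at 138, 200, 181 and 169 CPM and at 116, 204, 208 and 177 CPM from the lowest to the highest band. Cpa3 ran the other way, from 93.7 to 58.4 CPM and from 166 to 91.9 CPM, and Ccnd3, cyclin D3, stayed level (117 to 116 CPM and 121 to 106 CPM). The bands come from the same counts as the E score, and the rule keeps the H and M scores below it, which caps both in the low bands, so these trends are descriptive.

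**Figure D4:**
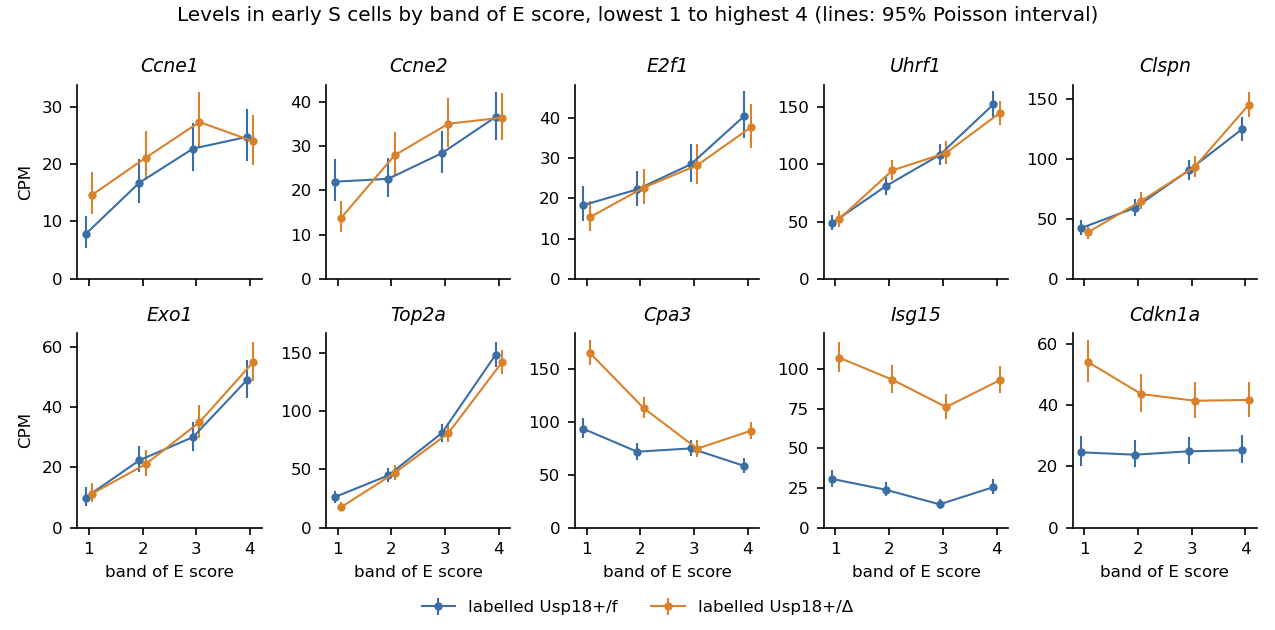
Levels in CPM (y axis) of 10 genes outside the score in 4 bands of E score within early S cells (x axis, lowest 1 to highest 4), with 95% Poisson intervals, in the Usp18+/f library (blue) and in the library labelled Usp18+/Δ (orange). Exo1, Uhrf1, Clspn and Top2a climb with the band alike in both libraries, Isg15 and Cdkn1a lie apart by library in every band.

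Early S cells made up slightly less of the library labelled Usp18+/Δ. They were 2230 of 6573 kept cells (33.9%, 32.8 to 35.1) in the Usp18+/f library and 2278 of 7345 (31.01%, 29.96 to 32.09) in the other, a log2 ratio of shares of -0.13 (-0.20 to -0.060). Thinned to 3000 UMIs the shares were 30.95 and 29.2% (-0.086, -0.16 to -0.012), with 153 and 296 shallower cells left out. Late S cells differed less (22.0 and 21.5%), G2 and mitotic cells were fewer (27.6 and 22.4%), and cells below 0 on all scores were more frequent (16.5 and 25.1%). Among early S cells below 0 on both other scores the shares were 20.1 and 19.4% (-0.054, -0.15 to 0.043). Sorting and pooling of 3 mice a library can set such shares, and their part was not tested.

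Most of the largest positive differences between the libraries within early S cells were in interferon-stimulated genes. Among 5921 genes with at least 20 CPM, 27 (0.456%) were at least 1.5-fold higher in the library labelled Usp18+/Δ. A further 9 (0.152%) were at least 1.5-fold lower, and 95.5% lay within 0.25 of 0 on the log2 scale. With cells of 2 to 5% mitochondrial UMIs, which left 226 and 160 early S cells, 219 of 5950 genes were higher and 150 lower. Isg15, the ubiquitin-like modifier that Usp18 removes, had 442 and 1747 UMIs, that is 23.2 CPM (21.1 to 25.5) and 92.4 CPM (88.2 to 96.9), a log2 ratio of 1.99 (1.84 to 2.15). Oas3, a sensor of double-stranded RNA, stood at 11.4 and 43.1 CPM (1.92), and Rnf213, a large ubiquitin ligase, at 42.4 and 106 CPM (1.33). Cyp11a1, the enzyme that starts steroid synthesis and no classical interferon target, stood at 131 and 311 CPM (1.246, 1.18 to 1.31), and its ratio ran from 1.19 to 2.12 over the alternatives tried, the highest with cells of 2 to 5% mitochondrial UMIs. The 8 largest positive differences were completed by Samd9l (1.17), Ifi27l2a (1.12), the GTPase Irgm1 (1.04) and Parp9 (1.03).

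In summed UMIs, the difference in Isg15 was smaller in early S cells than in the other classes. Its log2 ratio was 2.33 in late S cells, 2.23 in G2 and mitotic cells and 2.79 in cells below 0 on all scores, and the early S value lay below these by 0.34 (0.081 to 0.59), 0.24 (0.023 to 0.46) and 0.80 (0.56 to 1.04). As a share of thinned cells with an Isg15 UMI, the log2 ratio was 1.47 (1.20 to 1.74) in early S cells and 2.01 (1.56 to 2.46) in late S. It was 1.69 (1.36 to 2.02) in G2 and mitotic cells and 1.45 (1.17 to 1.74) in cells below 0 on all scores. So the last contrast was not seen on that measure, and the early S interval overlapped those of the other classes. Oas3 went the other way against late S, where its log2 ratio was 1.36, lower than in early S by 0.56 (0.25 to 0.88). Over the interferon list, 30 of 31 genes of at least 5 CPM lay above 0 and 21 were at least 1.5-fold higher, where among all 8865 such genes 84 (0.948%) were higher and 24 (0.271%) lower. The median of the list was 0.89, against 0.014 over all genes, and 0.88, 0.96 and 1.13 in late S cells, G2 and mitotic cells and cells below 0 on all scores. Ifit1 (1.47 and 11.8 CPM, 3.00) and Rtp4 (3.89 and 26.4 CPM, 2.76) were highest, and Ifi204, a DNA sensor of the AIM2-like family (23.0 and 17.0 CPM), was the only one below 0, at -0.43. This list was drawn up with results of these samples known and is no independent evidence of its direction.

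**Figure D5:**
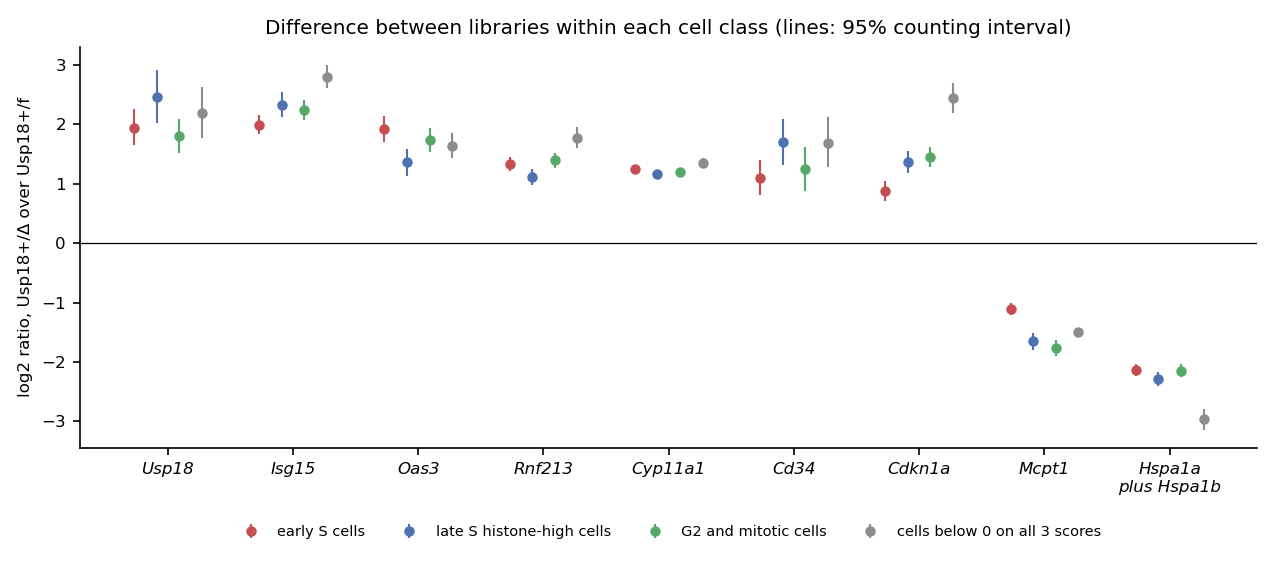
Log2 ratio between the libraries, Usp18+/f as the base (y axis), for 8 genes and for the sum of Hspa1a and Hspa1b (x axis), within each cell class (colour), with 95% counting intervals. In early S cells (red) Isg15 lies at 1.99 and Cdkn1a at 0.87, below the other classes, and the heat shock pair lies at -2.14.

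Cdkn1a, the p21 inhibitor of cyclin-dependent kinases and a p53 target, showed the clearest contrast with the other classes. It had 470 and 854 UMIs in early S cells, 24.7 CPM (22.5 to 27.1) and 45.2 CPM (42.2 to 48.3), a log2 ratio of 0.87 (0.71 to 1.04). The ratio was 1.36 in late S cells, 1.44 in G2 and mitotic cells and 2.44 in cells below 0 on all scores, so early S lay lower by 0.49 (0.24 to 0.73), 0.57 (0.34 to 0.80) and 1.57 (1.27 to 1.86). In the Usp18+/f library those classes stood at 22.5, 19.2 and 22.5 CPM, and early S cells lay above all other kept cells by 0.25 (0.084 to 0.41) on the log2 scale. In the other library the 3 classes stood at 57.5, 51.9 and 122 CPM. Along the E score bands Cdkn1a was flat in the Usp18+/f library (24.6, 23.9, 24.98 and 25.3 CPM) and 54.3, 43.7, 41.5 and 41.8 CPM in the library labelled Usp18+/Δ. Of 17 measured p53 targets 15 lay above 0, 13 with an interval above 0, and 4 were at least 1.5-fold higher. Among all 8865 genes of at least 5 CPM 84 (0.948%) were at least 1.5-fold higher, with a median of 0.014. The p53 list had a median of 0.27, against 0.28 in late S, 0.39 in G2 and mitotic cells and 0.67 in cells below 0 on all scores. Besides Cdkn1a, the targets at least 1.5-fold higher were Trp53inp1 (2.42 and 7.62 CPM, 1.66), Sesn2 (5.52 and 12.3 CPM, 1.16) and Zmat3 (12.3 and 21.1 CPM, 0.78). The damage recognition genes Ddb2 (-0.12) and Xpc (-0.066) lay below 0. Sums over cells of a class cannot tell more transcripts a cell from more cells with the transcript.

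Only 5 of 5771 genes had a between-library ratio in early S cells that differed from that in all other cells by at least 1.5-fold with an interval off 0. Cdkn1a (by -0.88), Rgs1 (-0.63), a regulator of G protein signaling, and Isg15 (-0.62) had the lower ratio in early S cells. Cdkn3, a cell cycle phosphatase (0.66), and Tacc3, a spindle protein (0.68), had the higher. With cells of 2 to 5% mitochondrial UMIs the early S ratios were -0.50 for Cdkn3, -0.28 for Tacc3 and 1.38 for Rgs1. Against single classes these contrasts did not all hold. In late S cells, G2 and mitotic cells and cells below 0 on all scores, the log2 ratios were 1.93, 0.29 and 0.98 for Rgs1 (0.70 in early S cells). They were -0.27, -0.32 and 0.00074 for Cdkn3 (0.15) and -0.076, 0.055 and 0.78 for Tacc3 (0.55). Rgs1, Cdkn3 and Tacc3 were chosen after their values were seen. Rgs1 stood at 16.4 and 26.6 CPM in early S cells and 16 and 40.1 CPM in the others. Tacc3 stood at 19.4 and 28.3 CPM in early S cells and 71.4 and 64.9 CPM in the others, and Cdkn3 at 22.0 and 24.5 CPM and 56.3 and 39.5 CPM. The other cells hold a different mix of classes in the 2 libraries, as the shares above show, and its part in these differences was not tested.

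The lower transcripts in the library labelled Usp18+/Δ were of other kinds. Hspa1a and Hspa1b, near-identical heat shock genes given as their sum, stood at 242 and 55 CPM, a log2 ratio of -2.14 (-2.24 to -2.04), and at -2.29, -2.14 and -2.96 in late S cells, G2 and mitotic cells and cells below 0 on all scores. Mcpt2 (65.5 and 29.4 CPM, -1.15) and Mcpt1 (121 and 56.0 CPM, -1.11) were lower, while Fcer1a, the IgE receptor gene of the same mast cell list, was higher (158 and 241 CPM, 0.61, 0.54 to 0.68). With cells of 2 to 5% mitochondrial UMIs the ratios were -0.099 for Mcpt2, 1.04 for Mcpt1 and 0.47 for Serpinb1a. In Mcpt1, 23 cells (the top 1%) held 47.7 and 61.3% of the UMIs. Serpinb1a (-0.89), a protease inhibitor, had 51.1 and 35.5% of its UMIs in 23 cells. Mgarp (-0.80), the AP-1 factor Fosb (-0.75) and Hist1h2ap (64.7 and 39.8 CPM, -0.70) were the others of the 8 largest negative differences.

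Replication genes outside the score differed little between the libraries. The 7 E score genes, whose levels the rule itself set with the same limit in both libraries, had log2 ratios from -0.091 (Ung, -0.21 to 0.026) to 0.10 (Cdc6, -0.017 to 0.22), each interval including 0. None of the 57 replication genes passed 1.5-fold, with a median of -0.0087 and a range from -0.34 (Rpa3) to 0.34 (Dbf4). Over the G2 and mitosis list the median was 0.13, against -0.071 in late S cells, -0.017 in G2 and mitotic cells and 0.18 in cells below 0 on all scores, and Gtse1 (5.57 and 11.4 CPM, 1.04), which restrains p53 in G2, was the 1 of 24 genes past 1.5-fold. Kit differed by 0.043 (-0.055 to 0.14), the integrins Itga4 by -0.11 (-0.18 to -0.032) and Itgb1 by -0.052 (-0.11 to 0.0023). Cd34, a marker of immature blood cells, stood at 7.84 and 16.8 CPM (1.10, 0.81 to 1.39) and Cpa3 was higher by 0.58 (0.48 to 0.68). Over the alternatives tried, these ratios ran from 1.01 to 2.21 for Cd34 and from 0.21 to 2.82 for Cpa3, the highest of each with cells of 2 to 5% mitochondrial UMIs. The Kit ratio ran from -0.062 to 0.78, the highest also with those cells. The inflammasome and pyroptosis genes had a median of -0.013 over 8 measured genes. Among them Aim2 (17.8 and 17.7 CPM), Gsdmd (35.9 and 33.9 CPM) and Gsdme (19.0 and 18.9 CPM) had intervals that included 0. With cells of 2 to 5% mitochondrial UMIs the Gsdmd ratio was 0.81. Nlrp3 and Plk2 had no UMI in the early S cells of either library, which allows up to 0.158 and 0.159 CPM.

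Per cell, the interferon transcripts were spread unevenly. Early S cells with an Isg15 UMI numbered 299 (13.4%) and 721 (31.7%), and the top 23 cells of each library held 30.8 and 24.3% of its Isg15 UMIs. Cyp11a1 was more even, found in 38.3 and 70.2% of cells with 9.22 and 5.49% of its UMIs in the top 23. Thinned to 3000 UMIs, early S cells held a median of 4 and 5 interferon list UMIs, and the number with more than 10 went from 18 of 2198 (0.819%) to 218 of 2235 (9.75%). That limit was the 99th percentile over all thinned cells of the Usp18+/f library, and with the same percentile of unthinned cells the shares were 0.762 and 5.27%. The thinned shares were 0.636 and 5.47% in late S cells, 0.394 and 7.20% in G2 and mitotic cells and 2.33 and 26.9% in cells below 0 on all scores. Unthinned, these were 0.761 and 5.13%, 1.87 and 11.2%, and 0.277 and 7.77%, and the order of the classes differed from that of the thinned shares. A Cdkn1a UMI was found in 6.92 and 10.5% of thinned early S cells (15.7 and 24.1% unthinned), and in 4.86 and 20.8% of thinned cells below 0 on all scores. No class of these libraries is known to lack Isg15 or Cdkn1a, so no background share from free RNA could be set beside these values, and the part of free RNA in them and in the class calls was not tested. With cells holding a macrophage UMI left out, the log2 ratios were 1.97 for Isg15 and 0.88 for Cdkn1a.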

How the data were processed

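The study pooled GFP+ Lin- c-Kit+ splenocytes of 3 mice a group into 1 10x V3 library each, and the authors deposited raw UMI counts per gene and barcode, made with Cell Ranger 3.0.2 on mm10 according to the submitters' processing notes. From these counts, cells were filtered, scored and classed as described above with Python 3.11.15, numpy 2.4.6, scipy 1.17.1, pandas 2.3.3 and scanpy 1.11.5, and figures were drawn with matplotlib 3.10.9. The members and gene lists were chosen with earlier results of these data known. UMIs were summed per class and library. Intervals were exact Poisson for levels, exact conditional binomial for ratios, Clopper-Pearson for shares, Koopman score for ratios of shares, and Wald for differences of log2 ratios. The intervals for ratios, for ratios of shares and for differences of log2 ratios were tested on simulated counts. Genes of at least 20 CPM were eligible for naming: the score genes, the 10 highest and 10 lowest outside the scores, the 10 largest differences from late S, the 8 largest differences in each direction between libraries, genes of the study, and up to 4 genes of each list of at least 5 CPM. Alternatives changed the filters, score, class rule, scaling, level minimum and fold, thinned cells to 3000 UMIs, and left out the top 5% of Scrublet doublet scores. Promoters came from RefSeq. Some genes of these lists are not reported here.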

Additional observations from a re-analysis of the deposited data

Results flagged for a closer look

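Opposite signs were looked for among some named genes only, not among all measured genes. These were the score genes, genes of the study, the largest differences between libraries and the genes whose ratio differed in early S cells. Among them, the ratio between the libraries had opposite signs in early S cells and another class for Itga4 and Hist1h1b, both intervals off 0. The same held in early S cells and all other kept cells pooled for Itga4, Hmmr and Tacc3. Itga4, an integrin subunit, had a log2 ratio of -0.11 in early S cells, 0.072 in G2 and mitotic cells, 0.17 in cells below 0 on all 3 scores and 0.069 in all other kept cells. The linker histone gene Hist1h1b had 0.096 in early S cells and -0.84 in cells below 0 on all 3 scores. The hyaluronan receptor gene Hmmr had 0.34 in early S cells and -0.14 in all other kept cells, but 0.047 in late S cells, 0.058 in G2 and mitotic cells and -0.060 in cells below 0 on all 3 scores. Tacc3, a spindle protein gene, had 0.55 in early S cells and -0.14 in all other kept cells, but -0.076, 0.055 and 0.78 in those 3 classes. The pooled cells hold a different mix of classes in the 2 libraries. These differences were not tested, since each group was 1 library, and Hist1h1b and Hmmr are genes of the scores that set the classes.

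Barcodes left out by the filters also met the score rule for early S. Among barcodes with at least 500 genes but under 2% mitochondrial UMIs, 63 of 313 (20.1%, 15.8 to 25) did so in the Usp18+/f library, and in the library labelled Usp18+/Δ the number was 10 of 61 (16.4%, 8.15 to 28.1). Among those with at least 500 genes and over 10%, 61 of 161 (37.9%, 30.4 to 45.9) and 74 of 242 (30.6%, 24.8 to 36.8) did so. Among barcodes under 500 genes, 21 of 234 (8.97%, 5.64 to 13.4) and 14 of 185 (7.57%, 4.2 to 12.4) did so.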

How the results depend on the processing

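No paired analysis was possible because 1 pooled library stood for each condition. Of 141 values under alternatives for the main results 122 kept their direction and size and 19 moved, and of 803 for single genes 644 kept them, 156 moved and 3 whose interval excluded 0 reversed. The cause was not tested. Keeping only cells of 2 to 5% mitochondrial UMIs, which left 226 and 160 early S cells, gave a log2 ratio of shares of -0.37, an interferon list median of 1.31, 219 genes higher and 150 lower between the libraries (27 and 9 in the main analysis), a replication list median of 0.46 over other cells in the library labelled Usp18+/Δ (0.18 in the main analysis), and reversed Mcpt1 (1.04), Serpinb1a (0.47) and Tacc3 (-0.28). It also changed the sign of Gsdmd (0.81) and Cdkn3 (-0.50), whose intervals had included 0, and gave 0.78 for Kit (-0.062 to 0.78 over all alternatives). The following 2 alternatives were chosen after seeing the data: leaving out cells with a macrophage UMI, and keeping only early S cells with H and M below 0. The latter gave -0.054 for the shares and replication medians of 0.0094 (0.16 in the main analysis) and 0.049. In the library labelled Usp18+/Δ that median was 0.32 with mean log values per gene in the score, 0.31 with an E score of at least 0.5, 0.28 with thinned cells and 0.35 with mean CPM per cell. Thinning gave 1.76 for Isg15. A minimum of 20 CPM gave an interferon list median of 0.62. A minimum of 5 CPM gave 84 genes higher and 24 lower, a lower fold limit gave 85 and 45, and totals without mitochondrial, ribosomal and hemoglobin genes gave 42 higher. Depth limits genes of few UMIs, since 3 UMIs are 0.158 CPM of a class.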
